A study of Mus musculus with 46 samples.

Results

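Polyamine synthesis and breakdown was followed through 10 mouse genes: Odc1, Srm, Sms, Amd1, Azin1, Oaz1, Oaz2, Sat1, Smox and Paox. The genes were taken by name, and 10 of 10 were listed in each of the 2 deposited tables, which hold 14888 genes between them. RNA sequencing had been run on cultured thyroid cells from mice with conditional alleles recombined in neuroendocrine cells by an inducible Ascl-Cre. There were 4 RPM lines, mutant for Rb, p53 and Max, and 4 RP lines, mutant for Rb and p53 only. A second experiment had 3 libraries of RPM cells transduced to express Max (Max addback) and 3 of RPM cells given an empty vector. All 14 libraries therefore carry the Rb and p53 mutations, and the addback and empty vector libraries carry the Max mutation as well. By the library names the addback experiment used 1 line, that of RPM replicate 2, so its replicates are not separate animals or lines. The labels give no sex, age or passage number.

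Polyamines (putrescine, spermidine and spermine) are small positively charged molecules that bind nucleic acids and are needed for cell growth. Odc1, ornithine decarboxylase, makes putrescine. Srm and Sms, the spermidine and spermine synthases, extend it with aminopropyl groups from S-adenosylmethionine that Amd1 has decarboxylated. The antizymes Oaz1 and Oaz2 bind the Odc1 protein, send it to the proteasome and limit polyamine uptake, and Azin1, an Odc1 relative without enzyme activity, captures antizymes. Sat1 acetylates spermidine and spermine, Paox oxidises the acetylated forms, and Smox oxidises spermine directly. MAX is the DNA-binding partner of the MYC proteins and of the MXD, MNT and MGA repressors, and Odc1 is a long-known MYC target. The question of the study was how the loss of MAX alters the transcription driven by this network.

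The libraries held 7829982 to 8408913 reads over listed genes in RPM lines, 8242657 to 8498396 in RP lines, 7426964 to 7912573 with Max addback and 6738614 to 7238672 with empty vector. Levels are given as read counts scaled to library size (CPM), normalised by the authors with TMM factors, and 3 reads were worth 0.353 to 0.458 CPM. Max averaged 240 ± 17.2 CPM with addback and 88.5 ± 6.73 CPM with empty vector (SD, n = 3 each). In the lines it averaged 88.2 ± 16.2 CPM in RPM and 54.6 ± 8.80 CPM in RP (SD, n = 4 each), and a sum over all exons cannot show a deleted one. The calcitonin gene Calca, which marks thyroid C cells, was listed in both tables, whereas the follicular markers Tg, Tshr and Foxe1 were listed in neither table. RPM replicate 1 carries an animal number that tumour libraries with the Rb/p53 mutant label carry too, so results of the lines are also given without it. The 4 Y-linked genes summed to 275 CPM in untransduced RPM replicate 2, the line named for the addback experiment. They summed to 0 to 0.257 CPM in the addback libraries, against 410 to 423 CPM in the empty vector libraries, although the names give 1 line. Addback and this difference cannot be told apart, because it separates the same 3 libraries from the same 3. Summed levels of 10 C cell and neuroendocrine markers were 9864 to 11345 CPM with addback and 5394 to 5718 CPM with empty vector, where 8 markers rose and 1 fell. Summed levels of 12 growth and cell cycle genes were 5237 to 6491 CPM with addback and 8105 to 8253 CPM with empty vector. Of these 12 genes 1 rose and 6 fell. Rises and falls in these lists are limma calls at an adjusted p under 0.05, by which 27.7% of all genes rose and 25.5% fell. Of the other lists, 3 listed fibroblast genes summed to 10.2 to 13.1 CPM with addback and 29.5 to 39.4 CPM with empty vector, and 3 listed endothelial genes to 7.33 to 10.1 CPM with addback and 5.65 to 6.54 CPM with empty vector. Follicular and immune genes summed to at most 3.73 CPM in any of these libraries. The part of these shifts in the addback results was not tested.

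Promoter windows of RefSeq (build GRCm38.p6, 250 bases before to 50 bases after a start) were found for 8 of the 10 genes, as 10 windows. They were searched on both strands for CACGTG, the E-box to which MYC and MAX bind, which reads the same on either strand, and for its variant CACGCG, which reads CGCGTG on the other strand. Over all 32851 windows, 7.15% held CACGTG and 9.27% held the variant. The 4 sequences printed here are those of Odc1, Oaz2 and Paox, the genes with windows that had the largest log2 changes among those that passed with addback, and of Sms, the only gene of the 8 whose window held CACGTG. Each is a stretch before the RefSeq start and outside the annotated exons of the gene, 5′ to 3′, with any motif in capitals. Those of Odc1 and Sms lie upstream of the annotated gene. Those of Oaz2 and Paox lie inside the annotated gene span, between exons.
Odc1, chr12:17544623-17544793, plus strand: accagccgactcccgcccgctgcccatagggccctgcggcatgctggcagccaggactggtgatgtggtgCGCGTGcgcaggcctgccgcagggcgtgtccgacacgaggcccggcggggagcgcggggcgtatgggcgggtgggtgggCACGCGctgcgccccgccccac
Sms, chrX:157492288-157492537, minus strand: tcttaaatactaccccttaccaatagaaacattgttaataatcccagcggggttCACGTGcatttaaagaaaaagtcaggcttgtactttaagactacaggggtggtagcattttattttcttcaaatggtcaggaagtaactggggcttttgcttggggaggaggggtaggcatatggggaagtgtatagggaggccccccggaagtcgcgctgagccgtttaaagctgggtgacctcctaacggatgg
Oaz2, chr9:65676298-65676547, plus strand: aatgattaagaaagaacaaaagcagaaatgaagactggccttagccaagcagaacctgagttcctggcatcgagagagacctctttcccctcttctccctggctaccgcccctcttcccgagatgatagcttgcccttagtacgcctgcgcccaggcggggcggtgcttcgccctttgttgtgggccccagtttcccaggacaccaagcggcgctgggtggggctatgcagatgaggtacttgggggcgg
Paox, chr7:140125407-140125656, plus strand: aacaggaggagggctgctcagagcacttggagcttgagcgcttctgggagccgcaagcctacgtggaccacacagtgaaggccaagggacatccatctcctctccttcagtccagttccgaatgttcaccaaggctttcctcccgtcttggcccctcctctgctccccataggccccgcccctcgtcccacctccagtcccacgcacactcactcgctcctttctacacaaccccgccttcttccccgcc
The Odc1 window held the variant at 101 and 180 bases before its RefSeq start, which lies downstream of the end of the printed stretch. CACGTG lay 196 bases before the first Sms start, and a second Sms window held the variant at 140 bases. Oaz1 held the variant at 212 bases before its start. The windows of Amd1, Oaz2, Sat1, Smox and Paox held neither set of letters, which describes these windows only.

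Per gene length, Srm, Azin1 and Odc1 had the highest group means of the pathway, in changing order, though Odc1 overlapped Oaz1 in both groups of lines. On the RPKM scale (reads scaled to gene length and library size) the mean levels in RPM lines were 72.4 for Srm, 46.2 for Azin1 and 32.5 for Odc1. In RP lines they were 45.6 for Srm, 46.3 for Azin1 and 23.5 for Odc1. The ranges of Srm and Azin1 over libraries were apart in RPM lines, where Srm was higher, and overlapped in RP lines. Odc1 and Oaz1 had nearly the same mean in RP lines, 23.5 and 23.3 RPKM. With Max addback the mean RPKM levels were 37.0 for Srm, 47.6 for Azin1 and 31.8 for Odc1. With empty vector they were 105 for Srm, 44.6 for Azin1 and 69.5 for Odc1, and in neither group of this experiment did the ranges of the 3 genes touch. Azin1 thus ranked first with addback and behind Srm and Odc1 with empty vector, while its level in these libraries lay between 43.5 and 49.4 RPKM. Of the antizymes, Oaz1 had mean levels of 19.6 to 23.5 RPKM and Oaz2 of 9.10 to 18.2 RPKM over the 4 groups. Oaz2 was above Sat1 in both groups of lines, overlapped it with addback and was below it with empty vector. Amd1 had means of 5.29 to 7.01 RPKM and Sms of 3.71 to 6.17 RPKM. Sat1 was the most abundant breakdown gene in every group, at 4.84 to 17.7 RPKM, whereas Paox and Smox had means of 1.01 to 2.56 and 0.558 to 3.24 RPKM.

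**Figure D1:**
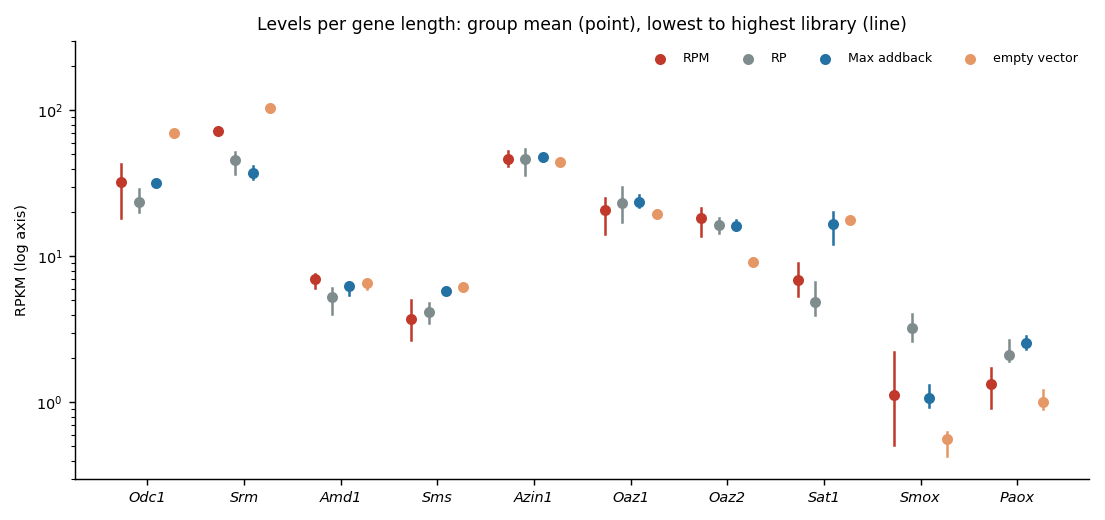
Levels of the 10 polyamine genes per gene length (RPKM, log axis) in RPM lines, RP lines, Max addback and empty vector libraries. Points are group means and lines run from the lowest to the highest library; the means of Srm, Azin1 and Odc1 lie highest, with Odc1 overlapping Oaz1 in RPM and RP lines, and those of Smox or Paox lowest.

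With Max addback the first enzyme, Odc1, and the spermidine synthase Srm fell, and the antizyme Oaz2 and both oxidases rose. Of the 10 genes, 6 passed limma at an adjusted p under 0.05, with Odc1 and Srm lower and Oaz1, Oaz2, Smox and Paox higher. Of all 14056 genes, 53.2% passed, 27.7% higher and 25.5% lower, so that 6 of 10 is near the background. The groups did not overlap for 7 of the 10 genes, against 61.9% of all genes, and the median log2 change of the 10 was 0.015, against -0.0018 over all genes. What follows is therefore an account of single genes and their sizes, not of a pathway set apart from the rest. In bulk libraries fewer cells of a type and less RNA per cell cannot be told apart.

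Odc1 (mm10 chr12:17544794-17551505, plus strand), which commits ornithine to polyamines, had 111, 106 and 108 CPM with Max addback, against 242, 236 and 232 CPM with empty vector. All addback libraries lay below all empty vector libraries, and the spread within either group was under 10 CPM. The addback mean was 0.457 of the empty vector mean, a log2 change of -1.12 ± 0.07 (SE) on the log2(CPM + 1) scale with an adjusted p of 5.76e-07 in limma. Srm (chr4:148591503-148594993, plus strand), the spermidine synthase, had 57.7, 53.8 and 66.1 CPM with addback, against 173, 157 and 172 CPM with empty vector. Again no library of one group reached the other, and the addback mean was 0.354 of the empty vector mean. Its log2 change of -1.49 ± 0.09 was the largest of the 10 genes (limma adjusted p 6.86e-07).

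The synthesis enzymes Sms and Amd1 did not pass the test. Sms, the spermine synthase, had 33.9, 35.9 and 34.1 CPM with Max addback and 36.3, 37.4 and 37.6 CPM with empty vector. These groups did not overlap either, but they lay close together: the log2 change was -0.10 ± 0.08 and did not pass (limma adjusted p 0.356). Amd1, S-adenosylmethionine decarboxylase, had 23.8, 19.4 and 23.6 CPM with addback and 23.7, 25 and 21.2 CPM with empty vector, with overlapping groups and a limma adjusted p of 0.661.

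Among the regulators of Odc1, Oaz2 (chr9:65668001-65690300, plus strand) changed most. It had 45.3, 47.6 and 52.7 CPM with Max addback, against 26.6, 27.8 and 27.2 CPM with empty vector. Every addback library lay well above the empty vector libraries, and the addback mean was 1.78 times the other (log2 change 0.81 ± 0.09, limma adjusted p 5.03e-05). Oaz1, the more abundant antizyme, had 57.2, 55.5 and 67.7 CPM with addback and 49.5, 51.9 and 49.0 CPM with empty vector. Its groups were apart by a narrow gap, and the log2 change of 0.25 ± 0.09 passed by a small margin (limma adjusted p 0.0438). That call was lost in DESeq2 (adjusted p 0.0748) and without addback replicate 1 or any 1 of the empty vector libraries (limma adjusted p 0.0514 to 0.128). Azin1 had 309, 305 and 280 CPM with addback and 274, 290 and 272 CPM with empty vector. The groups overlapped, and the change of 0.09 ± 0.08 did not pass (limma adjusted p 0.313), although without addback replicate 3 it was 0.14 with an adjusted p of 0.0185.

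Of the breakdown genes, both oxidases, whose levels were low, rose. Paox (chr7:140115799-140137224, plus strand), which oxidises acetylated polyamines, had 12.2, 14.1 and 11.4 CPM with Max addback, against 4.57, 4.40 and 5.95 CPM with empty vector. The lowest addback library stood above the highest empty vector library, and the mean was 2.53 times as high (log2 change 1.19 ± 0.15, limma adjusted p 0.000107). Paox overlaps Echs1 on the other strand, and the sources used here do not give the strand setting of the counting. Echs1, a gene of fatty acid oxidation, moved the other way, with 73.1 ± 5.48 CPM with addback and 89.0 ± 5.86 CPM with empty vector (SD, n = 3 each; limma adjusted p 0.0201). Smox (chr2:131491496-131525922, plus strand), spermine oxidase, had 5.08, 3.61 and 3.86 CPM with addback, against 2.43, 2.42 and 1.68 CPM with empty vector. These were 29 to 40 reads with addback and 11 to 17 reads with empty vector, the groups did not overlap, and the change was 0.71 ± 0.18 (limma adjusted p 0.00731). Sat1, the acetyltransferase ahead of Paox, had 33.8, 48.2 and 55.9 CPM with addback and 46.7, 51.9 and 48.9 CPM with empty vector. The addback libraries lay on both sides of the others, with no call (log2 change -0.12 ± 0.16, limma adjusted p 0.534), but without addback replicate 3 the change was -0.28 (adjusted p 0.0354).

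**Figure D2:**
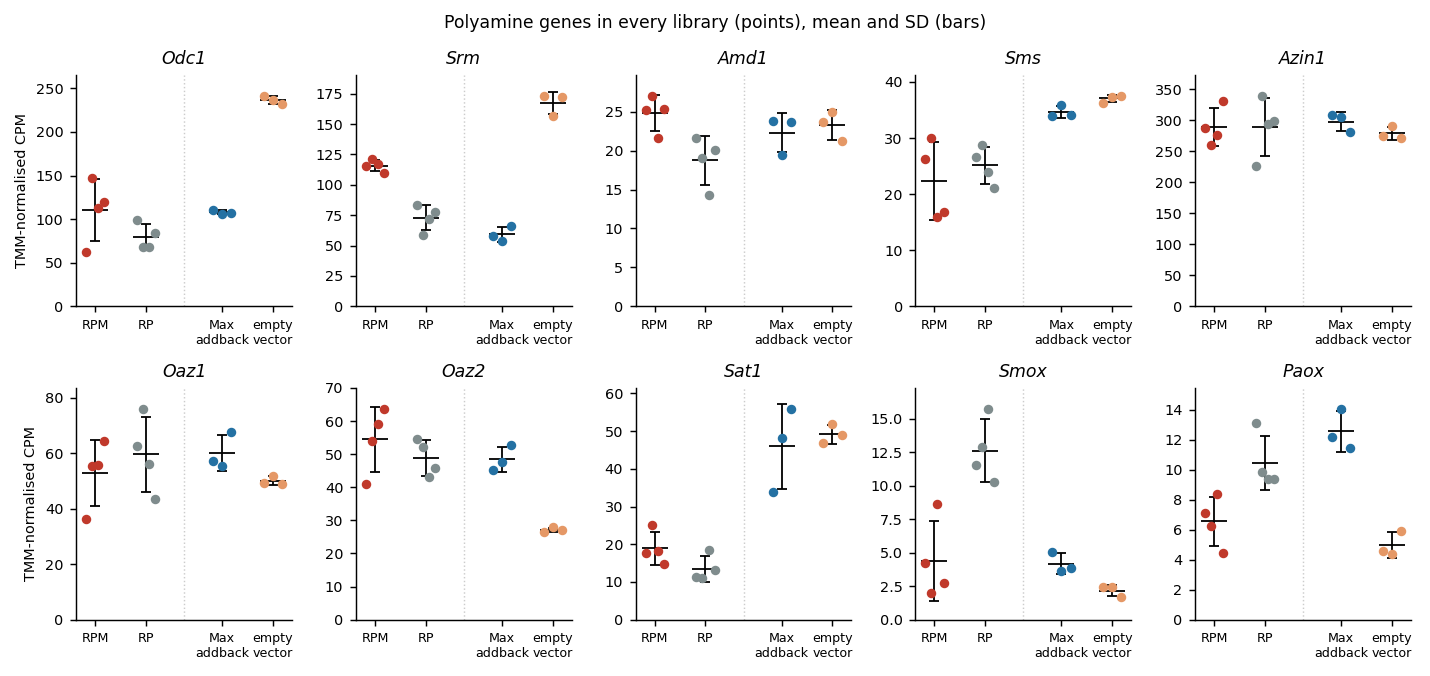
TMM-normalised CPM of each gene in every library (points) with mean and SD (bars): RPM and RP lines on the left of each panel, Max addback and empty vector on the right, each y axis starting at 0. Odc1 and Srm lie lower and Oaz2, Smox and Paox higher in the addback libraries, with no overlap; in the lines Srm and Amd1 lie higher and Smox and Paox lower in RPM than in RP.

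With 3 libraries against 3 the exact two-sided permutation test can give no p below 0.1, which the 7 genes without overlap reached. In the authors' deposited table, Odc1 and Srm were called lower and Oaz2, Smox and Paox higher with addback, and Oaz1 was not called at an FDR of 0.0488. Summed over the 10 genes, levels were 689 to 703 CPM with addback and 868 to 884 CPM with empty vector.

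Between the independent lines no polyamine gene passed the test. In limma 0 of 10 genes reached an adjusted p under 0.05, against 0.334% of all 14360 genes (48 genes), and edgeR called 0 of 10, against 0.0209% of all genes. At an unadjusted p under 0.05 limma gave Srm, Smox and Paox, where 15.9% of all genes passed. DESeq2 called Srm higher and Smox lower in RPM lines (adjusted p 0.000217 and 0.0454), beside 4.58% of all genes. The RPM and RP libraries did not overlap for 4 of the 10 genes, Srm, Amd1, Smox and Paox, against 9.37% of all genes. Groups of 4 lines that do not overlap always give an exact two-sided permutation p of 0.0286, the smallest possible. That p therefore adds nothing to the separation of these 4 genes. Adjusted over the 10 genes, it was 0.0714 for each. The median log2 change of the 10 genes was 0.074, against -0.0052 over all genes. The C cell and neuroendocrine markers summed to 5236 to 24429 CPM in RPM lines and 5422 to 7676 CPM in RP lines, and the growth genes to 4492 to 7046 CPM in RPM lines and 3783 to 5850 CPM in RP lines. None of these markers passed in limma, and their part in the values of the lines was not tested.

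Srm had 115, 121, 117 and 110 CPM in RPM lines, against 83.3, 58.9, 71.9 and 77.4 CPM in RP lines. The RPM lines were tightly grouped above all RP lines, and their mean was 1.59 times as high (log2 difference 0.67 ± 0.13, limma adjusted p 0.0832). Odc1 had 62.8, 147, 113 and 119 CPM in RPM lines, against 99, 68.2, 68.4 and 83.8 CPM in RP lines. RPM replicate 1 lay below every RP line and the other RPM lines above every RP line. The log2 difference was 0.42 ± 0.26 (limma adjusted p 0.452), and without RPM replicate 1 it was 0.66 (adjusted p 0.102). For Srm that omission gave 0.67 and an adjusted p of 0.0654.

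Amd1 had 25.3, 27.1, 21.7 and 25.4 CPM in RPM lines and 21.7, 19.0, 14.3 and 20 CPM in RP lines. The groups were apart only because RPM replicate 3, at 21.659 CPM, lay just above RP replicate 1, at 21.656 CPM (log2 difference 0.40 ± 0.19, limma adjusted p 0.339). Sms was at 16.0 to 30.0 CPM in RPM lines and 21.1 to 28.7 CPM in RP lines. RPM replicates 3 and 4 were below all RP lines and RPM replicate 2 above them, so the groups overlapped (limma adjusted p 0.705).

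The antizymes and Azin1 showed no separation between the lines. Oaz1 ranged over 36.2 to 64.5 CPM in RPM lines and 43.7 to 76.0 CPM in RP lines (limma adjusted p 0.736). Oaz2 was at 41.0, 54.1, 59.1 and 63.7 CPM in RPM lines and 54.6, 52.1, 43.0 and 45.8 CPM in RP lines. RPM replicate 1 again had the lowest value of its group for both antizymes. Azin1 averaged 289 ± 30.5 CPM in RPM lines and 289 ± 47.0 CPM in RP lines (SD, n = 4 each), with a log2 difference of 0.0081 ± 0.15.

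The oxidases were at lower values in RPM lines. Smox had 4.21, 1.99, 8.64 and 2.72 CPM in RPM lines, against 11.6, 12.9, 15.7 and 10.2 CPM in RP lines. All RPM lines lay below all RP lines, with a mean of 0.349 times that of RP lines. Its log2 difference of -1.47 ± 0.37, the largest of the 10 genes between the lines, did not pass in limma (adjusted p 0.159). Paox had 7.15, 6.23, 8.40 and 4.46 CPM in RPM lines, against 13.1, 9.86, 9.39 and 9.42 CPM in RP lines. These groups were also apart, and the log2 difference was -0.61 ± 0.25 (limma adjusted p 0.295). Sat1 ranged over 14.9 to 25.2 CPM in RPM lines and 11.1 to 18.4 CPM in RP lines, with overlap and an adjusted p of 0.378. Without RPM replicate 1 the log2 differences were -1.5 for Smox and -0.66 for Paox, and neither passed.

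**Figure D3:**
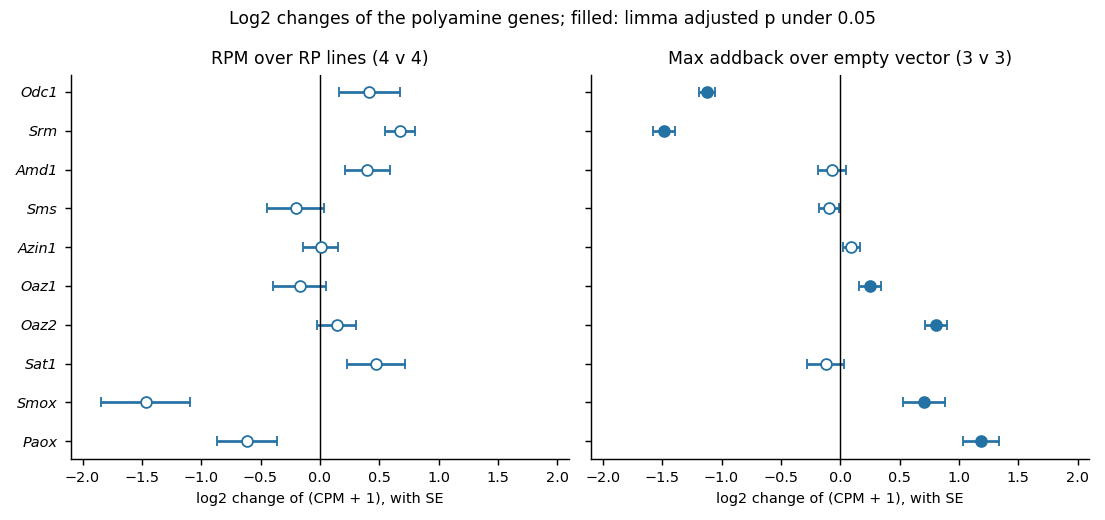
Log2 change of (CPM + 1) with SE for each gene, RPM over RP lines on the left and Max addback over empty vector on the right. Filled points passed limma at an adjusted p under 0.05: 0 of 10 in the lines and 6 of 10 with addback, where the standard errors are smaller.

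By their labels RPM lines and empty vector cells are Max mutant, whereas RP lines are not and addback cells were given Max, so both comparisons can be set side by side as Max mutant cells against cells with Max. The difference of the comparisons is the log2 difference of RPM from RP lines less that of empty vector from addback cells. It was tested with limma over all 14 libraries and 13528 shared genes. The variance was pooled over separate lines and libraries of a single line, so these p-values do not measure how the addback effect varies between lines. The difference passed for 2 of the 10 genes, Srm and Oaz2, against 8.83% of all genes. In the Max mutant cells Srm differed by 0.67 (log2) in the lines and by 1.49 in the addback experiment, a difference of -0.82 ± 0.17 (limma adjusted p 0.0113). Oaz2 differed by 0.14 in the lines and by -0.81 in the addback experiment, a difference of 0.95 ± 0.21 (limma adjusted p 0.0154). The value of the lines, 0.14 ± 0.17 (limma adjusted p 0.704), was smaller than its SE, so its sign is not established. In the Max mutant cells Odc1 differed by 0.42 in the lines and 1.12 in the addback experiment, Smox by -1.47 and -0.71, and Paox by -0.61 and -1.19. For these 3 genes the sides had the same sign, and their differences did not pass (limma adjusted p 0.182, 0.331 and 0.253). The 2 experiments share no library, but the addback line is that of RPM replicate 2. In that untransduced line Odc1 was at 147 CPM and Srm at 121 CPM, and with empty vector their means were 237 and 167 CPM. Oaz2 was at 54.1 CPM in that line, against 45.3 to 52.7 CPM with addback and 26.6 to 27.8 CPM with empty vector. The Oaz2 calls thus rest on empty vector libraries that lay below their untransduced line, and the cause was not tested. Smox, at 1.99 CPM there, lay within the range of its empty vector libraries, and Paox, at 6.23 CPM, just above its own. Both lay below all addback libraries. The untransduced line and these libraries are on tables that were normalised separately.

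MAX partners gave further values beside these. Mnt, a repressor that pairs with MAX or MLX, was at 112 ± 12.8 CPM in RPM lines and 55.8 ± 3.17 CPM in RP lines (SD, n = 4 each; limma adjusted p 0.0325). EdgeR did not make that call (adjusted p 0.0563), nor did limma without any 1 RP line or without RPM replicate 3 or 4 (adjusted p 0.0569 to 0.107). With addback Mnt was at 57.0 ± 0.637 CPM, against 89.0 ± 9.53 CPM with empty vector (SD, n = 3 each; limma adjusted p 0.000271). Mycl was at 320, 6.61, 2.84 and 3.10 CPM in RPM lines, against 408, 175, 178 and 233 CPM in RP lines. RPM replicate 1, the line with the lowest Odc1, was the RPM line with Mycl in the range of the RP lines. Mycl did not pass in limma with all lines (adjusted p 0.219) and passed without RPM replicate 1 (adjusted p 0.00267). Myc was at 0.248 to 2.25 CPM in RPM lines and 2.65 to 5.61 CPM in RP lines (limma adjusted p 0.125), and was not listed in the addback table. Mycn did not pass in either comparison (limma adjusted p 0.933 in the lines and 0.340 with addback). The part of these genes in the polyamine results was not tested.

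The neighbouring pathways were read from 4 lists, of which the lines gave 0 calls in limma among 46 listed genes. With Max addback 25 of 45 listed genes passed, or 55.6%, near the 53.2% of all genes. For relatives and transport of polyamines, 9 of 19 genes were listed, 3 rose and 3 fell, with a median log2 change of 0.13. Slc22a3, an organic cation transporter, fell to 2.20 ± 0.776 CPM with addback, against 23.3 ± 4.16 CPM with empty vector (log2 change -2.93). Cav1, the caveolin of cell surface caveolae, rose to 132 ± 28.0 CPM with addback, against 45.0 ± 13.3 CPM with empty vector (1.55). Atp13a3, a polyamine transporter, fell by 0.58 and the glypican Gpc1 by 0.43 on the log2 scale. Slc12a8 rose by 0.53 and the Sat1 relative Sat2 by 0.40, and both of these calls were lost in DESeq2 and with several single libraries left out.

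Genes that supply ornithine and arginine had 2 higher and 6 lower calls among 14 listed of 19, with a median log2 change of -0.20. Arg1, the arginase that cuts arginine into ornithine and urea, rose to 42.4 ± 5.55 CPM with Max addback, against 6.28 ± 1.28 CPM with empty vector (2.58). Gatm, which uses arginine to start creatine synthesis and releases ornithine, was at 0.716 ± 0.183 CPM with addback and 11.3 ± 0.404 CPM with empty vector (-2.84). Ass1, argininosuccinate synthase, fell to 7.73 ± 0.435 CPM with addback, against 24.5 ± 1.15 CPM with empty vector (-1.55). The proline enzyme Pycr1, the arginine transporter Slc7a1 and the mitochondrial ornithine carrier Slc25a15 fell by 0.81, 0.79 and 0.76 on the log2 scale. Arg2 and Oat, which also make or use ornithine, did not pass (limma adjusted p 0.125 and 0.636).

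The methionine cycle, which provides S-adenosylmethionine and recycles the methylthioadenosine that polyamine synthesis leaves, had 2 higher and 7 lower calls among 18 listed of 21 (median -0.13). Mat1a, an S-adenosylmethionine synthetase known as the liver form, rose to 23.7 ± 1.48 CPM with addback, against 0.920 ± 0.199 CPM with empty vector (3.69). In the untransduced RPM lines, normalised separately, Mat1a was at 13.0 to 40.3 CPM. Mat2a, which makes the same product in most other tissues, was at a much higher level and fell, with 330 ± 2.40 CPM with addback, against 457 ± 18.7 CPM with empty vector (-0.46). Mtap, which cleaves methylthioadenosine, fell to 32.5 ± 2.52 CPM with addback, against 66.1 ± 4.04 CPM with empty vector (-1.0). The salvage enzymes Mri1 and Enoph1, which act after Mtap, fell by 1.03 and 0.57 on the log2 scale, and Apip and Adi1 of the same route did not pass. Cth, of the transsulfuration branch, fell by 1.45, and the amino acid transporter Slc43a2 rose by 0.61.

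Spermidine is also used to make hypusine, the modified lysine of the translation factor encoded by Eif5a. Of 4 listed genes 2 fell with addback and 0 rose, with a median of -0.45. Eif5a2 was at 45.5 ± 6.85 CPM with addback and 107 ± 1.38 CPM with empty vector (-1.23), and Dhps, deoxyhypusine synthase, was at 36.5 ± 4.48 CPM with addback and 56.9 ± 0.830 CPM with empty vector (-0.63). Eif5a and Dohh, which completes hypusine, did not pass (limma adjusted p 0.0521 and 0.236). All errors of these 4 lists are SD with n = 3 each, and every change named as a rise or fall had a limma adjusted p of at most 0.0355.

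**Figure D4:**
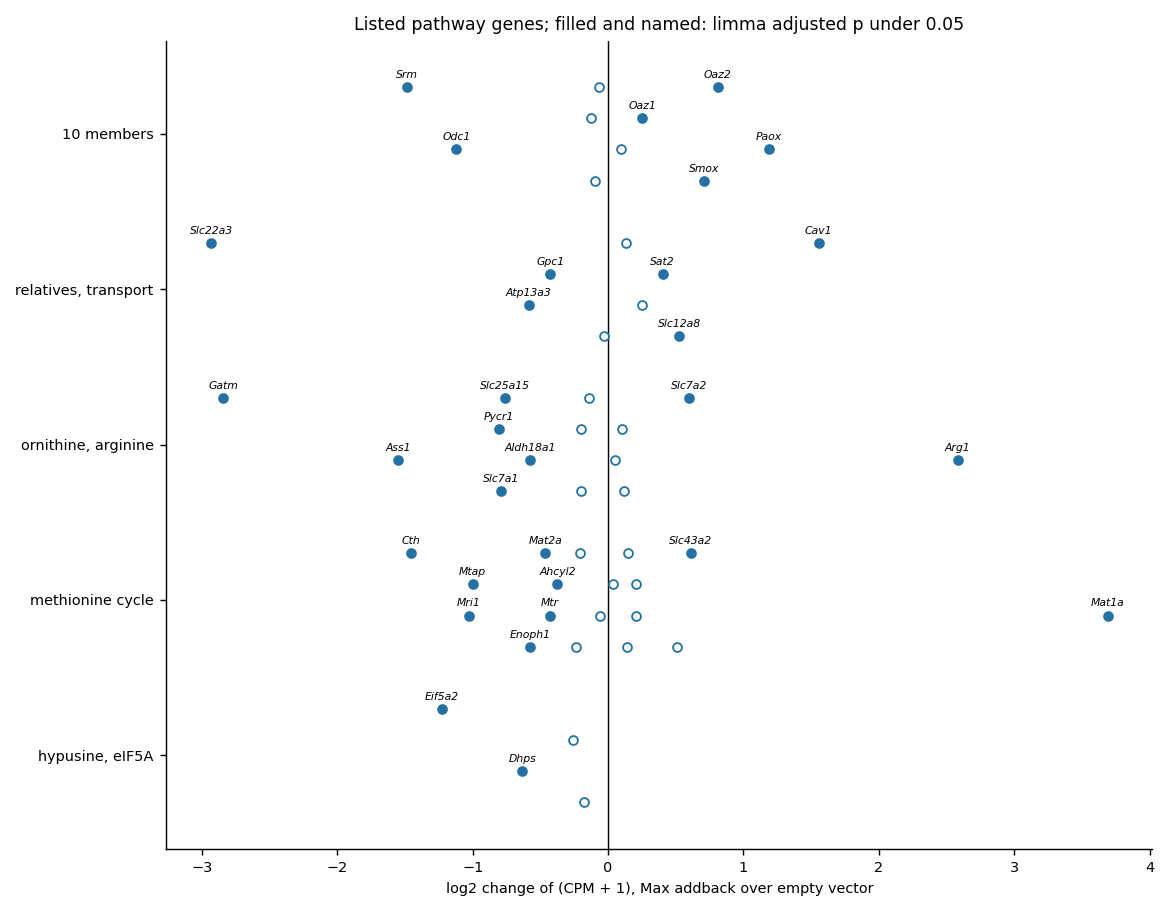
Log2 change of (CPM + 1), Max addback over empty vector, for the 10 polyamine genes and the listed genes of 4 neighbouring pathways, each row 1 list with points offset vertically for legibility. Filled, named points passed limma at an adjusted p under 0.05; Mat1a (3.69) and Arg1 (2.58) lie farthest right and Slc22a3 (-2.93) and Gatm (-2.84) farthest left.

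The genes whose levels followed Srm and Odc1 most closely were ranked by Pearson correlation of log2(CPM + 1) over the 14 libraries, centred within each table, among 12917 genes. These points share 2 tables, and the addback contrast carries much of the spread, so the values are a description. Srm was followed most closely by Pprc1 (0.970), Eef1a1 (0.967), Hspa9 (0.966), Ddx18 (0.966) and Pdcd11 (0.966). Odc1 was followed by Myo16 (0.952), Cdc20 (0.950), Polr3e (0.943), Pcnx4 (0.942) and Psat1 (0.934), with no gene on both lists. Srm and Odc1 had a correlation of 0.849 with each other. Paox ran opposite to both, at -0.867 with Srm and -0.763 with Odc1, and Sms and Srm had -0.046.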

How the data were processed

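Values of 14 libraries of cultured thyroid cells were analysed: 4 RPM lines, 4 RP lines, 3 Max addback and 3 empty vector libraries, grouped by sample title and genotype. The 32 tumour libraries of the 46 samples were not analysed here. Per the submitters' processing notes, bcl2fastq 1.8.4, TopHat2 2.1.0, HTSeq 0.6.1 and edgeR were used with build mm10; the sources used here give neither the annotation release nor the strand setting of counting. The deposited signal is CPM with TMM normalisation, per the file headers, in 2 separately normalised tables (14360 and 14056 genes); the deposited RPKM values also scale to gene length. The authors also deposited, per the file headers, log2 fold changes, p-values with FDR and a call score (-1, 0, 1). Each CPM was a whole multiple of the value of 1 read, within 0.01 of a read, for 100% of values, which gave the reads back.

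The main test was limma-trend 3.58.1 in R 4.3.3 on log2(CPM + 1), two-sided, with Benjamini-Hochberg adjustment over all genes of a table and a threshold of 0.05, each comparison on its own libraries without covariates. The scale understates changes of low genes. The difference of the comparisons was fitted on all 14 libraries. Single genes were also tested by exact permutation over libraries. On the recovered reads, edgeR 4.0.16 called 3 genes in the lines and 7430 with addback, and DESeq2 1.42.0 called 658 and 6705. Other pseudocounts, a filter on low values, 2 scalings, a replicate block and leaving out single libraries were also tried, and sample or group weights were added after seeing the data. The tests were checked on simulated data. Labels do not say whether addback replicates were separate cultures, so p-values measure the spread between these libraries. Overlaps of gene spans were looked up in a GRCm38 annotation, as were genes that share a near-identical stretch (at least 90% over 200 bases, blast 2.17.0). Such a stretch does not make a gene a copy. Paox had 23 such genes (3 of them listed: Dubr, Galnt11 and Map3k2), Odc1 had 14 (1 listed), Amd1 had 8 and Sms 7 (0 listed). Reads from such stretches may not all have been counted for the gene they came from, and this was not examined.

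The 10 genes and the pathway and marker lists were chosen with earlier results of these data known. All 10 genes are named, and of each pathway list at most the 6 called genes with the largest change; other genes named with values (Mat2a, Arg2, Oat, Apip, Adi1, Eif5a, Dohh, Echs1) were added after their values were seen. Of the marker lists, 1 of 6 follicular, 3 of 7 fibroblast, 1 of 7 immune and 2 of 5 endothelial genes were listed in the lines. Of these, 0 passed there. With addback 3, 3, 1 and 3 were listed, of which 0, 1, 0 and 1 rose and 1, 2, 0 and 1 fell. Over all genes 27.7% rose and 25.5% fell with addback.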

Additional observations from a re-analysis of the deposited data

Results flagged for a closer look

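In groups of 4, single libraries that stood far from the rest were looked for, which chance alone gives in about 5% of groups; 20 groups of the polyamine genes and 10 groups of Max, Myc, Mycn, Mycl and Mnt were examined. Paox in RP replicate 1, at 13.1 CPM, lay apart from the other RP lines at 9.39 to 9.86 CPM. Myc in RPM replicate 3 was at 2.25 CPM, where the other RPM lines had 0.248 to 0.255 CPM. Mycl in RPM replicate 1 was at 320 CPM, where the other RPM lines had 2.84 to 6.61 CPM.

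The limma test of the log2 difference of RPM from RP lines less that of empty vector from addback cells passed for some genes. Its variance was pooled over separate lines and libraries of a single line, so it does not measure how the addback effect varies between lines. The genes examined were the 10 polyamine genes, Max, Mycn, Mycl, Mnt and the called genes named from the neighbouring pathway lists. Those called genes were picked for large addback changes, which favours a flag here. Of the 43 neighbouring genes listed for this test 5 passed (11.6%), against 8.83% of all genes. Srm gave -0.82 (0.67 in the lines, 1.49 in the addback experiment; adjusted p 0.0113). Oaz2 gave 0.95 (0.14 and -0.81; adjusted p 0.0154). Arg1 gave 5.19 (2.61 and -2.58; adjusted p 0.0161), Mat1a gave 3.03 (-0.66 and -3.69; adjusted p 0.00209), and Mtap gave -1.06 (-0.057 and 1.0; adjusted p 0.0283). Max itself gave 2.11 (0.68 and -1.43, adjusted p 0.000143 in the same test). The addback cells were transduced to express Max, so its negative second value was built into the design.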

How the results depend on the processing

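The calls of Odc1, Srm, Oaz2, Smox and Paox with addback, and those of Srm and Oaz2 in the difference of the comparisons, held under all alternatives run. In the lines limma called 48 genes, against 3 with edgeR, 658 with DESeq2, 107 with sample weights chosen after seeing the data and 0 to 261 with 1 library left out: 261 without RPM replicate 1, and fewer than the 48 without any other. The 10 genes gave 0 calls in the lines throughout except 2 in DESeq2 (Srm and Smox). With addback 6166 to 9035 genes and 5 to 8 of the 10 were called with 1 library left out. The difference of the comparisons was called for 1195 genes (763 higher and 432 lower), for 1216 higher and 811 lower with a weight per group, chosen after seeing the data, and for 523 to 1984 with 1 library left out: 1984 without RPM replicate 1, 523 to 571 without any 1 empty vector library, and 609, 574 and 715 without addback replicates 1, 2 and 3.

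Changes of sign occurred only in genes without a call. In the lines Azin1 was -0.0013 with edgeR, -0.0038 with DESeq2 and -0.11 to 0.090 with 1 library left out, Mycn 0.15 with edgeR, 0.15 with DESeq2 and -0.54 to 0.18 with 1 left out, and Oaz1 0.073 with sample weights. With addback, Amd1 was 0.012 on total reads without TMM and -0.13 to 0.026 with 1 left out, Mycl 0.046 on total reads, 0.035 with sample weights and -0.18 to 0.059 with 1 left out, and Sat1 -0.28 to 0.079. In the difference, Azin1 was -0.010 to 0.18 and Oaz1 -0.053 to 0.25 with 1 left out. The cause was not tested.

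Replicate numbers were not used to pair the samples in the main test. Deviations of same-numbered libraries correlated at 0.011 to 0.41 in the lines and 0.020 to 0.081 with addback. Those of differently numbered libraries correlated at -0.29 to 0.19 in the lines and -0.081 to 0.044 with addback. A replicate block gave 0 genes in the lines and 7438 with addback, with 0 and 5 of the 10 genes called; Oaz1 was not called (adjusted p 0.0583). Depth limits Smox most, at 11 to 17 reads per empty vector library.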
